A study of Mus musculus with 18 samples.

Results

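The regions described here are methylated stretches of mouse heart DNA that lie at microRNA genes. Peaks of the 18 deposited libraries were merged wherever they overlapped by at least 1 base, and an autosomal merged region was kept when it lay within 2000 bases of a gene whose symbol names a microRNA. The rule left out 13 host genes of microRNAs and used no level, score or group. It found 483 regions, of 152196 merged regions in all and of 148111 on the autosomes. They lay at 505 of the 1090 autosomal microRNA genes of the RefSeq table for GRCm38.p6, which is the build the submitters name as mm10.

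The study followed hearts of 12-week-old male mice, labelled C57BL/6JR, after myocardial infarction (MI). The operated groups had the left anterior descending coronary artery tied under sodium pentobarbital, and tissue belongs to 1 of 5 times after the tie: 10 min, then 1 h and 6 h of the same day, 24 h and finally 72 h. The sham group had the same operation, with the suture passed around the artery but not tied. Each of the 6 groups held 3 mice and gave 3 libraries. All groups shared the strain, sex, age and operation, and a single sham group served all 5 times. The labels give both myocardial tissue and cardiomyocytes and describe no isolation of cells. DNA peaks hold no marker that could check the cell type, so a change in a region and a change in the mix of cells cannot be told apart. The assay was MeDIP-seq, in which an antibody against methylated cytosine pulls down sheared DNA. It shows where methylated fragments pile up, not what percentage of molecules is methylated.

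MicroRNAs are short RNAs that hold down the translation and stability of messenger RNAs. A primary transcript folds into a hairpin, the hairpin is cut by the Drosha and Dgcr8 complex and then by Dicer, and 1 arm is loaded onto an Argonaute protein. Bases 2 to 8 of the mature strand, the seed, choose the targets. Many microRNAs lie in introns of protein-coding genes and are made with the host transcript, so methylated DNA at such a hairpin lies in a gene body, often far from a promoter. In the heart, miR-1 and miR-133 are the main muscle microRNAs, miR-208a, miR-208b and miR-499 are made from introns of myosin heavy chain genes, miR-21 is known from fibroblasts of the injured heart, and the miR-29 family holds down collagen genes.

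The mature sequences below are those of heart and infarct microRNAs that the results turn on, and of miR-219a, a microRNA of the brain list made from 2 genes, from RefSeq, 5′ to 3′ with the seed in capitals. Those that share a seed follow each other, so that the regions of their genes can be compared.
miR-29a-3p: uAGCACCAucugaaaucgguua
miR-29b-3p: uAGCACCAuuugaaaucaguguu
miR-208a-3p: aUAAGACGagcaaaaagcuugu
miR-208b-3p: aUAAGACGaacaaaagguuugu
miR-499-5p: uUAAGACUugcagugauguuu
miR-497a-5p: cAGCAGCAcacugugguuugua
miR-195a-5p: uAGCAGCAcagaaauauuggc
miR-219a-5p: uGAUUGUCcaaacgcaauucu
miR-21a-5p: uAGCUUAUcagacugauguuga
miR-29a and miR-29b have 1 seed, as do miR-208a and miR-208b, and miR-497a and miR-195a. Over the genes with a region, 773 mature sequences from 459 genes held 679 seeds, and 72 of the seeds occurred in 2 or more genes.

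The hairpins below show where cytosine stands before guanine, the pair that the antibody mostly meets in adult tissue. They come from RefSeq, on the strand of the gene, with each CG in capitals. Mir219a-2 and Mir219a-1 make the same miR-219a-5p from different chromosomes, Mir1306 lies in the region with the highest mean score among those found in every library, Mir411 and Mir543 lie in the most shared regions of the Dlk1-Dio3 cluster, and Mir499 and Mir208a are the heart genes with a region.
Mir219a-2: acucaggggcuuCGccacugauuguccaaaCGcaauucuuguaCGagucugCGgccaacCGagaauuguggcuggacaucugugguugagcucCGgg
Mir219a-1: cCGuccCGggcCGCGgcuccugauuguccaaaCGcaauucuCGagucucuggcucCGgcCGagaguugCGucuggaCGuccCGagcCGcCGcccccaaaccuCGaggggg
Mir1306: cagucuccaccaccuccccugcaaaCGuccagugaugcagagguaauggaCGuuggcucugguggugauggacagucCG
Mir411: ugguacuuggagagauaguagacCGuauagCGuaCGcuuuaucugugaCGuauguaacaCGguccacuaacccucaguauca
Mir543: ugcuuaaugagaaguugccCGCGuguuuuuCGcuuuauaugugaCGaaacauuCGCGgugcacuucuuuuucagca
Mir499: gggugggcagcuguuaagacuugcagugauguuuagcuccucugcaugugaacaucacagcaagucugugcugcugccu
Mir208a: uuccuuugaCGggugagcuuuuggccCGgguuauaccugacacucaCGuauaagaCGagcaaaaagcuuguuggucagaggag

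Most regions at microRNA genes lay in gene bodies and not over the hairpin. Of the 483 regions, 160 overlapped a microRNA gene, and the rest lay in its flank. A protein-coding gene overlapped 378 of them (78.3%), against 50.5% of all autosomal regions. A further 25 overlapped only a long non-coding RNA gene, and 80 overlapped neither kind. Of the 1090 autosomal microRNA genes, 758 themselves overlap a protein-coding gene, and the regions were chosen for lying near these 1090 genes. The window from 250 bases before to 50 bases after a gene's start, taken as its promoter, was touched by 12 regions (2.48%), against 1.72% of autosomal regions. Among the 12 was the region at Mir26a-2, at the start of its host gene Ctdsp2. These counts place the regions by the table's gene bounds; exons, introns and UTRs were not used here.

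The regions lay on both sides of the genes in near equal numbers. Of 494 pairs of a region and a gene with a known strand, the centre of the region was upstream in 256 and downstream in 238. The median offset was -52.25 bases, negative for upstream. A region lay near several genes in 36 cases, with up to 9 genes at 1 region. The last region inside the distance limit was 1999 bases from Mir12188, with a peak in 5 libraries and a mean score of 76.9, and the first outside was 2004 bases from Mir7022, with a peak in 5 libraries and a mean score of 66.5.

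Regions at microRNA genes were shared among libraries in numbers close to those of other regions. The median region had a peak in 4 of 18 libraries, against 3 for autosomal regions and 4 for the 321 regions at snoRNA genes, another class of small RNA genes. A single library held 122 of the regions (25.3%), against 29.2% of autosomal and 27.4% of snoRNA regions. All 18 libraries held 17 of them (3.52%), against 5.08% of autosomal and 5.30% of snoRNA regions. At least 9 libraries held 132 (27.3%), against 25.2% and 30.2%. Their median mean score was 65.5, against 66.1 for autosomal regions. Scores are those the authors' caller wrote; their scale is not stated, and the lowest in the lists is 50. Merging adds the span of each library, so the width of a region and its number of libraries are not independent. The wider 242 regions had a median of 9 libraries and the narrower 241 a median of 2. What else links them was not tested.

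**Figure D1:**
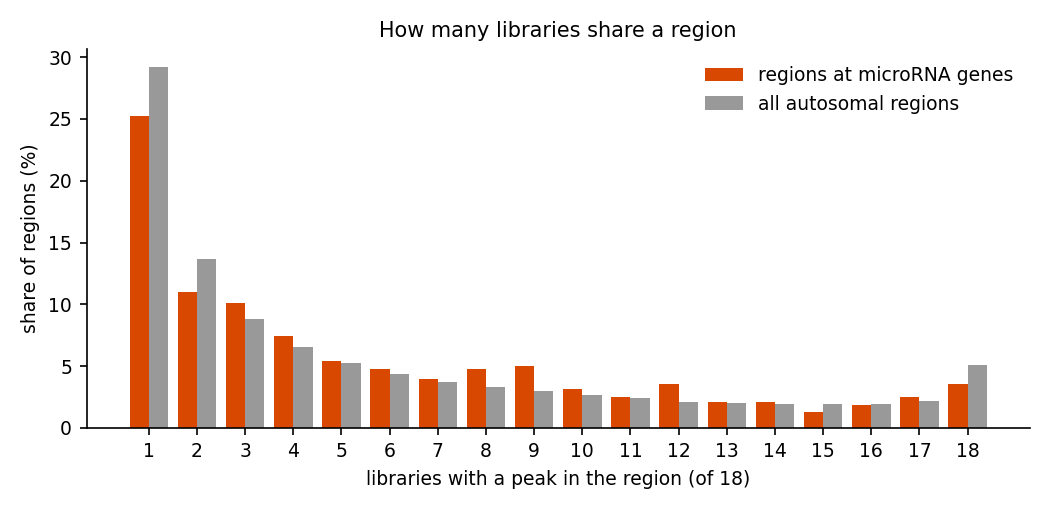
Bars give the share of regions (%) by the number of libraries, of 18, that have a peak in the region, for the 483 regions at microRNA genes (orange) and the 148111 autosomal regions (grey). Both sets peak at 1 library, with 25.3% and 29.2%, and the share in all 18 libraries is 3.52% and 5.08%.

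More regions at microRNA genes had a peak at 72 h than in the other groups. The sham libraries held 141, 192 and 133 of them (155 ± 32.0, mean ± SD, n = 3). The 10 min libraries held 184, 110 and 144 (146 ± 37.0), those of 1 h 164, 138 and 140 (147 ± 14.5), those of 6 h 133, 166 and 112 (137 ± 27.2), and those of 24 h 150, 168 and 142 (153 ± 13.3). At 72 h they were 217, 210 and 176 (201 ± 21.9). The third 72 h library, with 176, lay below sham replicate 2, with 192, so the groups overlapped in number.

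The lengths of the peak lists moved with these counts. The lists ran from 34255 to 60653 peaks; sham had 49404, 60130 and 44328, and 72 h had 58992, 60653 and 48608. As a share of a library's autosomal regions, microRNA regions made up 0.296%, 0.334% and 0.310% in sham (0.313% ± 0.0190) and 0.386%, 0.361% and 0.375% at 72 h (0.374% ± 0.0125). In this share the 3 libraries at 72 h all lay above the 3 sham libraries. The means of the times between ran from 0.328% at 24 h to 0.344% at 1 h, and 1 h replicate 1 reached 0.383%. With only the 34255 highest-scoring peaks of each list the groups overlapped, at 0.277% to 0.328% in sham and 0.306% to 0.331% at 72 h, and the difference of 0.0609 percentage points became 0.0139. With peaks of a score of at least 100 it turned to -0.0113. Those high-scoring peaks showed no excess at 72 h in the share. No test was made, since a sum over chosen regions gets none here.

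**Figure D2:**
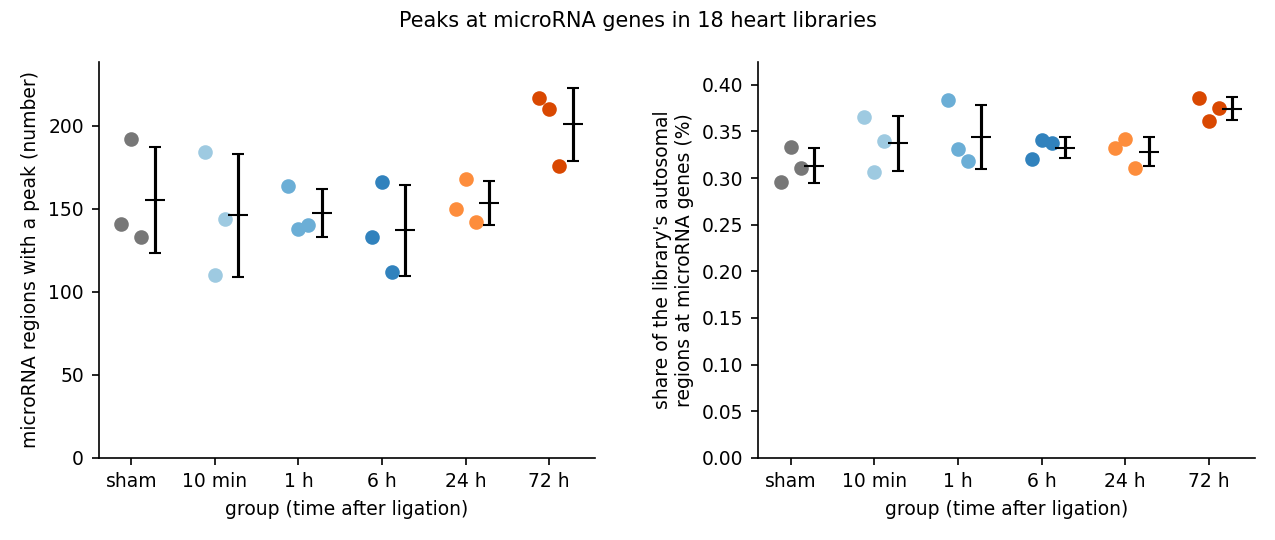
Left: number of microRNA regions with a peak in each library; right: those regions as a share (%) of the library's autosomal regions, by group, with each of 3 libraries as a point and the mean ± SD beside them. The 72 h libraries hold 176 to 217 regions and the sham libraries 133 to 192; in the share, 0.361% to 0.386% lies above 0.296% to 0.334%.

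Regions shared by all 3 libraries of a group numbered 80 at 72 h (16.6% of the 483, against 16.1% of autosomal regions) and 56 in sham (11.6%, against 14.4%). The 10 min group shared 53 of them, the 1 h group 63, and the 6 h and 24 h groups 55 each. These are 11.0% to 13.0% of the 483, and the same groups shared 11.4% to 13.8% of autosomal regions. Of the 122 regions found in a single library, 40 (32.8%) came from 72 h, against 25.8% of the autosomal regions found in a single library; the 3 libraries gave 16, 18 and 6. The other groups gave 14 to 18 each. All 6 groups had a peak in 118 regions (24.4%), against 22.7% of autosomal regions, and 135 (27.95%) were found in 1 group only, against 31.2%.

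Few regions at microRNA genes differed completely between a time and sham. Gained here means a peak in 3 of 3 libraries of the time and 0 of 3 sham libraries, and lost means the reverse; with 3 against 3 libraries an exact test cannot go below p = 0.1, so these are counts without a test. At 10 min, 1 region was gained, against 0.218% of all autosomal regions, and 1 was lost, against 0.627%. At 1 h, 1 was gained (0.223% of autosomal regions) and 1 was lost (0.55%). At 6 h none was gained (0.203%) or lost (0.707%), and at 24 h 2 were gained (0.394%) and none was lost (0.524%). At 72 h 7 were gained, which is 1.45% of the 483, against 0.724% of autosomal regions, and none was lost, against 0.401%. With equal list lengths 3 were gained at 72 h, against 0.445% of autosomal regions.

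The 7 regions gained at 72 h held single peaks between 51.76 and 138.73 at that time, against a median of 72.11 over all peaks of the lists. The region of Mir6992, chr19:8740128-8741405, overlaps 1700092M07Rik and Wdr74 and lies 1566 bases from the microRNA gene, itself in Stx5a. It had scores of 91.5, 138.73 and 64.27 (98.2 ± 37.7, n = 3). A peak was also found in 1 library at 10 min, 1 at 1 h, 2 at 6 h and 2 at 24 h. The region over Mir7031, chr5:121817807-121819286 in Sh2b3, which encodes an adaptor that dampens cytokine signalling, scored 94.31, 79.42 and 82.96 (85.6 ± 7.78), with 1 library at 10 min and 1 at 24 h. Mir3104, chr7:141992627-141993667 and 386 bases away in the kinase gene Brsk2, scored 76.18, 91.85 and 77.75 (81.9 ± 8.63). It also had 54.9 in 1 library at 10 min, 114.53 in 1 at 6 h and 53.01 in 1 at 24 h. These 3 remained gained with equal list lengths, though Mir3104 did not when at least 50% of the region had to be covered.

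The region over Mir6407 was the one of the 7 found at no other time. It lies at chr19:53009559-53010682 in Xpnpep1, the gene of an aminopeptidase, and its 72 h scores were 65.66, 54.98 and 78.32 (66.3 ± 11.7), with no peak in the other 15 libraries. The region over Mir6927, in Mllt6, scored 90.29, 51.76 and 52.64 at 72 h and had a peak in 2 libraries at 10 min. Mir7-2, which makes miR-7a and lies outside protein-coding genes, had a region 1828 bases away with 58.03, 94.39 and 53.35. That region also had 60.86 in 1 library at 1 h and 57.04 in 1 at 24 h. Mir3100, named after its values were seen, lies in Dmpk, the gene of a muscle kinase whose repeat expansion causes myotonic dystrophy, and scored 57.0, 67.86 and 58.38. Its peaks of 79.75 in 1 library at 10 min and 78.44 in 1 at 1 h were higher, and 1 library at 24 h had 56.36. With equal list lengths these 4 were no longer gained.

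The region over Mir6418 was the one region lost, and it was lost at both 10 min and 1 h. It spans chr5:137528306-137529830 in Gnb2, the gene of a G protein beta subunit. The sham libraries scored 60.34, 80.14 and 73.2 (71.2 ± 10.0, n = 3), and no library at 10 min or 1 h had a peak. The 6 h group had a peak in 2 libraries, 71.22 and 59.77, and the later groups in all, with 87.26, 68.17 and 66.67 after 24 h and 75.67, 56.21 and 99.28 after 72 h. With equal list lengths, or with at least 50% of the region covered, 2 of the 3 sham libraries had a peak and the region was no longer lost.

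At 10 min, the region over Mir6397 was gained with scores of 68.74, 85.03 and 100.66 (84.8 ± 16.0, n = 3). It lies at chr4:108086495-108087578 in Scp2, the gene of a sterol carrier protein. The Mir6397 region had a peak in 9 libraries in all, and every later group held some, with scores of 56.59 to 97.45. At 1 h, a region 1304 bases from Mir6934 in Tbc1d16 was gained with 56.89, 60.81 and 66.13. The Mir6934 region had a peak in 8 libraries. Its scores outside the 1 h group ran from 55.78 to 72.9, and the 6 h group had none. At 24 h, Mir186, 622 bases from its region in Zranb2, had 66.91, 75.09 and 83.74, and Mir680-1 had 90.5, 50.2 and 53.21. The Mir186 region had a peak in 7 libraries, and its scores outside the 24 h group were lower, 54.26 to 62.42. Mir680-1 also had a peak of 85.97 in 72 h replicate 3. None of these regions was found at its named time alone. Mir6397 and Mir186 remained gained with equal list lengths; Mir6934 and Mir680-1 did not.

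**Figure D3:**
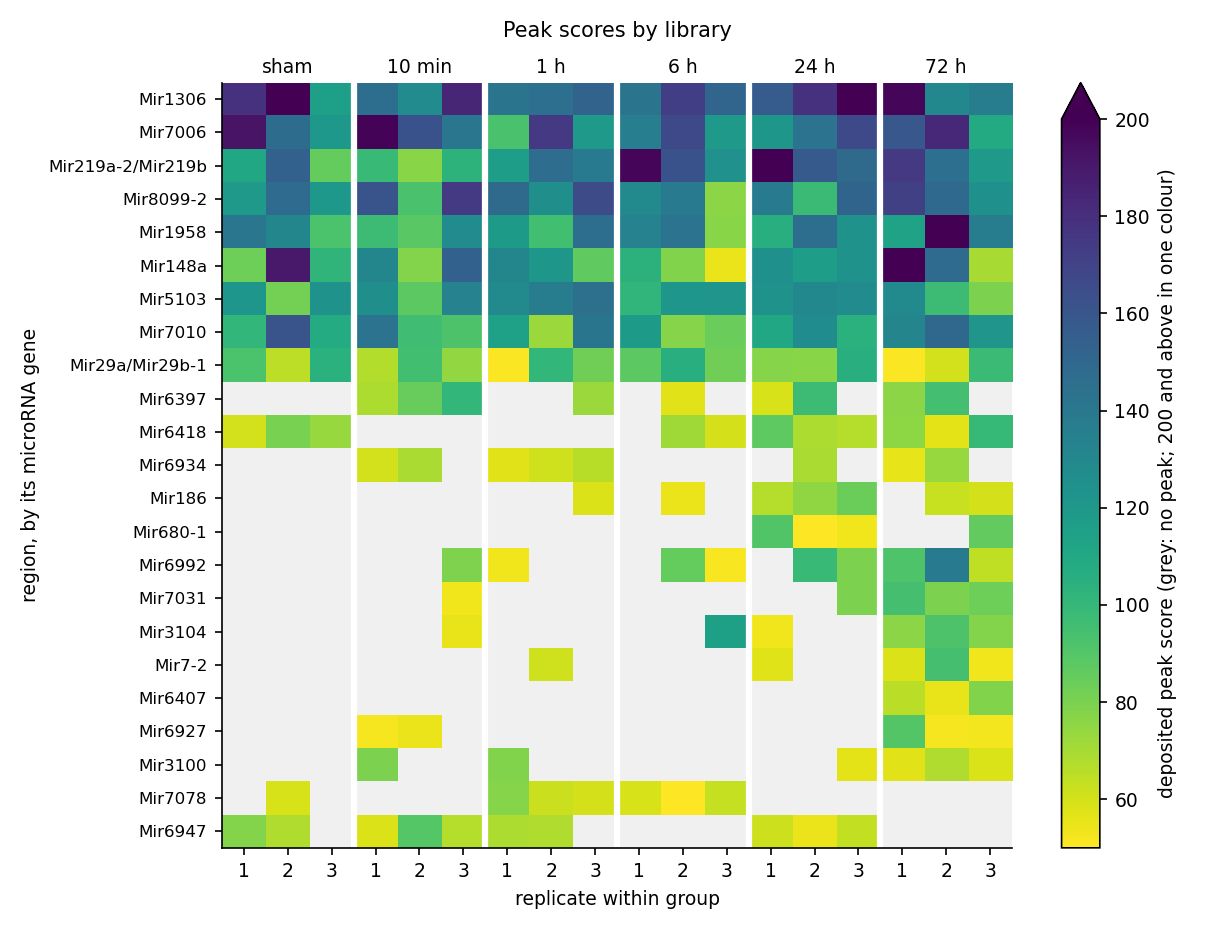
Deposited peak score in each library (columns: 3 replicates in each of 6 groups; grey: no peak) for named regions (rows, by microRNA gene). The first rows, found in every library, are filled throughout, and the rows of regions gained at 72 h are filled in all 3 libraries at 72 h and empty in sham.

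No region at a microRNA gene differed over the 6 groups after adjustment. An exact permutation test of the number of libraries with a peak in each group gave an unadjusted p under 0.05 for 6 regions (1.24%), against 1.03% of the autosomal regions. Adjusted by Benjamini-Hochberg over all 148111 regions, 0 regions passed, here and over all autosomal regions (0%), and the lowest adjusted p was 1. The smallest p that this design allows is 0.000411, and 3 libraries per group limit what can pass an adjustment over so many regions. The 6 regions were those of Mir6418, Mir7078, Mir6407, Mir6927, Mir6947 and Mir680-1.

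Mir6418 and Mir7078 had the lowest exact permutation p, 0.00566 each. The region over Mir7078, chr8:117459206-117462040 in Cmip, had a peak in all libraries at 1 h (77.31, 61.92 and 59.49) and 6 h (58.97, 50.42 and 63.22), in sham replicate 2 (59.12), and in no other library. Mir6407 had an exact permutation p of 0.00735, Mir6927 0.0105, Mir6947 0.0226 and Mir680-1 0.0294. The region 1121 bases from Mir6947 in Actr8 had a peak in 2 sham libraries, 3 at 10 min, 2 at 1 h and 3 at 24 h, and in none at 6 h or 72 h.

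With the 5 times pooled, no microRNA region was gained or lost in MI. Gained meant 12 or more of the 15 MI libraries with a peak against 0 of 3 sham libraries, met by 0.0378% of autosomal regions, and lost meant 3 or fewer against 3 of 3, met by 0.255%. Fisher's exact test, two-sided, gave 1 region an unadjusted p under 0.05 (0.207%, against 0.858% of autosomal regions), with p = 0.0196, and 0 after adjustment (0% of autosomal regions). It lies 323 bases from Mir6941 in Jag2, a Notch ligand gene, with sham scores of 52.86 and 52.82, close to the lowest score in the lists, and no peak in MI; it was named after its values were seen. The smallest p that 15 against 3 libraries allow is 0.00123.

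Of the 6 heart microRNA genes, Mir499 and Mir208a alone had a region within 2000 bases, against 46.3% of all autosomal microRNA genes. Mir499, in the myosin heavy chain gene Myh7b, lies at chr2:155622880-155622958 and had a peak in 11 of 18 libraries, with 1 library at 24 h and 2 in each of the other groups. Its upstream region, chr2:155620334-155621955 and 925 bases from the gene, scored 78.63 and 58.62 in sham, 54.88 and 57.52 at 10 min, and 54.03 in the 1 h group, then 61.73 in the 24 h group and 85.82 and 75.31 in the 72 h group (65.8 ± 12.2, SD over 8 libraries), with none at 6 h. The region that overlaps the gene, chr2:155622893-155624417, had 50.02 in sham, 68.73 and 54.86 at 10 min, and 72.03 in the 1 h group, with 66.35 and 56.27 in the 6 h group (61.4 ± 8.83, SD over 6 libraries), with none at 24 h or 72 h. The exact permutation p over 6 groups was 0.75 for the upstream and 0.568 for the overlapping region, so no difference between groups was found at either. The Mir499 hairpin shown above has no CG at all, and a peak covered part of it in 3 libraries.

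Mir208a, in Myh6, the gene of the main adult ventricular myosin in mice, had peaks in 1 library alone. The gene lies at chr14:54949060-54949142, with regions 41 and 731 bases away, which scored 58.57 and 69.41 in sham replicate 2, whose list is the second longest. Mir208b, in Myh7, the myosin gene of the fetal and stressed heart, lies at chr14:54975700-54975776 and had no region; the nearest, 3823 bases away, was a peak of 54.51 in 6 h replicate 2. Both genes of this seed therefore had peaks in at most 1 library within 5000 bases.

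Mir1a-1, at chr2:180389048-180389124, had no region within 2000 bases. The nearest lay 7904 bases away, over its partner Mir133a-2 in the shared host transcript Mir1a-1hg, at chr2:180397028-180399127. That region had a peak of 53.78 in sham and none at 10 min. The 1 h libraries had 73.87 and 65.9, 1 library of 6 h had 66.33, those of 24 h had 64.98 and 59.01, and those of 72 h had 98.84 and 51.35. Each group had it in 0 to 2 of its 3 libraries.

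Mir133a-1, at chr18:10782909-10782976 in Mib1, had its nearest region 20831 bases away, with a peak in 11 libraries. Mir21a, at chr11:86584067-86584158 in the gene Vmp1, had none within 2000 bases. The nearest, 5784 bases away, had a peak in 3 libraries, with 66.67 and 60.49 at 10 min and 78.67 at 24 h. No library had a peak at Mir21a within 5000 bases, at any time after the tie.

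**Figure D4:**
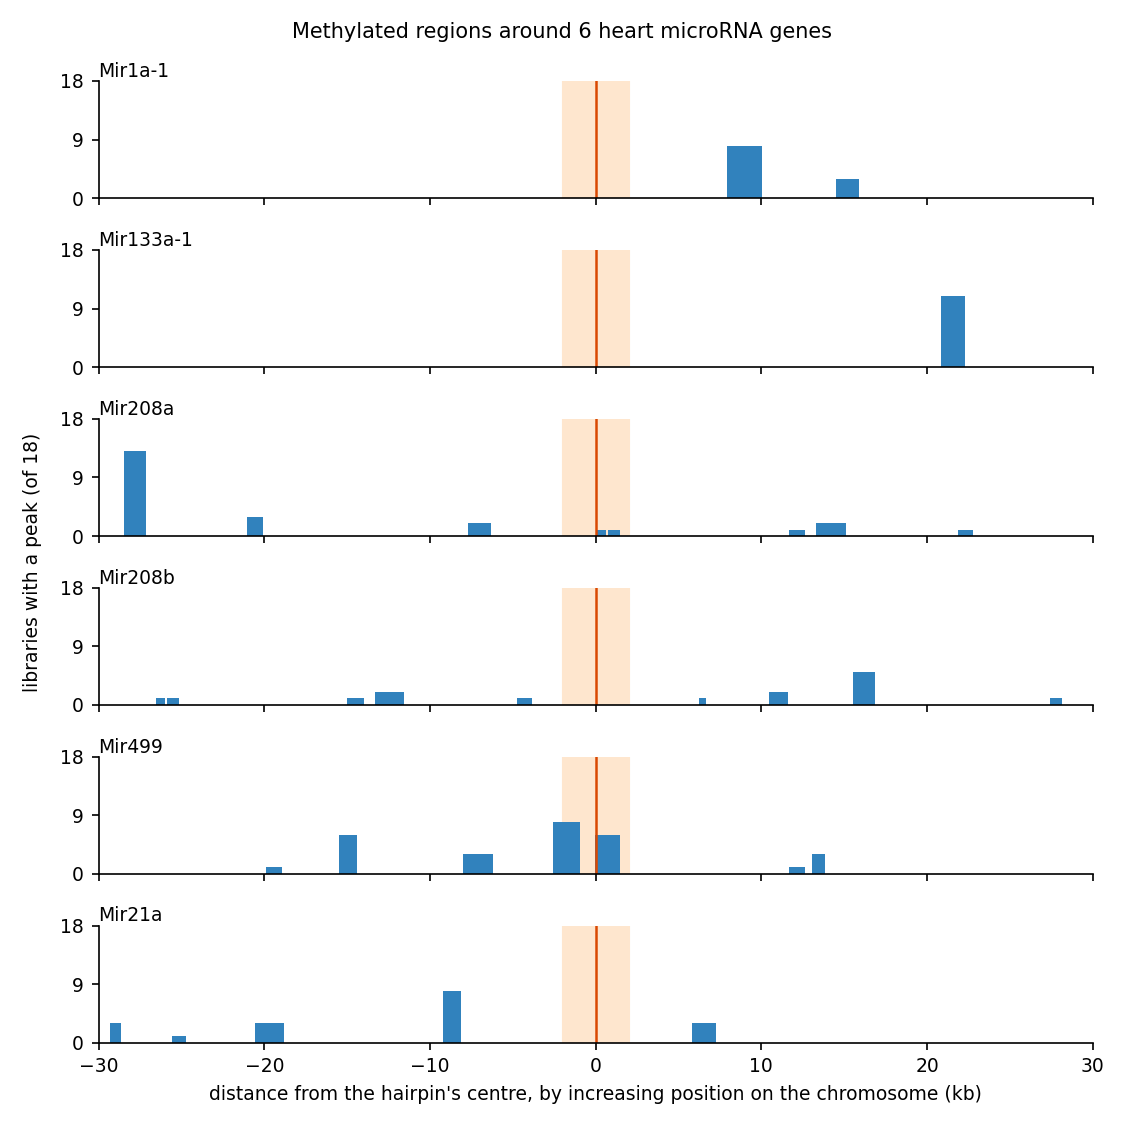
Number of libraries with a peak (of 18) in merged regions within 30 kb of the centre of each of 6 heart microRNA hairpins (orange line; shaded band: 2 kb to each side). The band is empty except at Mir208a, with 1 library, and Mir499, with regions in 8 and 6 libraries.

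Further lists of muscle, infarct, blood and brain microRNAs did not exceed the share of all autosomal microRNA genes, of which 46.3% had a region and 15.1% had a peak in at least 9 libraries. Of 6 further muscle genes, 2 had a region: Mir133a-2, above, and Mir486, in an ankyrin gene, Ank1, with 1 region 1374 bases away. Its peaks were 64.13 and 51.46 at 24 h and 55.73 and 58.15 at 72 h, and no other library had one; the exact permutation p over 6 groups was 0.0735, unadjusted. Of 45 infarct and fibrosis genes, 19 had a region (42.2%) and 3 had a peak in at least 9 libraries: Mir29a, Mir29b-1 and Mir320. Of 26 blood and vessel genes, 12 had one (46.2%), of 31 brain and epithelium genes 12 (38.7%), and of 10 let-7 genes none.

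Mir29a and Mir29b-1, which share a seed and a transcript, shared a region in every library. It lies at chr6:31060686-31062036, 624 bases from Mir29a. Its scores were 92.58, 65.05 and 103.97 in sham and 51.05, 60.32 and 97.7 at 72 h, and the mean over the 18 libraries was 82.0. The sham and 72 h values overlapped. A peak reached the hairpins themselves in 72 h replicate 2 alone, with 75.33. Mir29b-2 and Mir29c, on chromosome 1, had no region.

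A region 1089 bases from Mir320 lies at chr14:70439715-70442421 by Polr3d. It had a peak in 17 libraries, all but 10 min replicate 2, at 116 ± 23.9 (SD). Mir142, a marker of blood cells, had a region over its gene at chr11:87755714-87757827 with a peak in 13 libraries, at 92.2 ± 23.9: all 3 in sham and at 1 h, 1 at 24 h, and 2 in each of the other groups. Mir497 and Mir195a, a further pair with a shared seed, had a common region at chr11:70235176-70236359, 376 and 41 bases away. It had a peak in 3 libraries, 1 at 10 min and 2 at 72 h.

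The Dlk1-Dio3 cluster, an imprinted domain of chromosome 12 whose microRNAs are made from the maternal chromosome in long transcripts such as Meg3, Rian and Mirg, was the list with the most genes at a region. Of 60 listed genes found, 59 lie in the cluster on chromosome 12. A region within 2000 bases was found for 47 of the 60 (78.3%), and 32 had a peak in at least 9 libraries (53.3%). Only 13 regions stood behind the genes on chromosome 12, since these genes are close together. There were 28.4 microRNA genes per 100 kb and 10.1 merged regions per 100 kb, against 6.17 merged regions per 100 kb over the autosomes. Over all 21 merged regions of the stretch, the median was 4 libraries and 38.1% were in at least 9, against 25.2% of autosomal regions. Of the 13 at microRNA genes, 7 (53.8%) were in at least 9 libraries, against 125 of the 470 other microRNA regions (26.6%).

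The most shared regions of the cluster lay by Mir379 and Mir494. The region at chr12:109709398-109710927, at 8 genes from Mir379 to Mir758 and over Mir411, had a peak in 16 libraries at 91.3 ± 25.1 (SD). Sham scored 95.62 and 92.33, the 10 min libraries 121.19 and 88.69, and the 1 h libraries 69.23, 138.4 and 100.18. The 6 h libraries scored 50.64, 62.43 and 79.38, those of 24 h 97.58, 106.02 and 61.56, and those of 72 h 110.55, 121.71 and 64.87. The region at chr12:109716672-109718819, at 7 genes from Mir494 to Mir667 and over Mir543, had a peak in 16 libraries at 80.9 ± 18.6. Each was missing from 2 libraries, of different groups. At the Mir379 region the 3 scores of 6 h lay below those of sham and 10 min, and at the Mir494 region the range of every MI group overlapped that of sham; scores of different lists were not tested.

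Other regions of the cluster were those of Mir337 to Mir665 in the retrotransposon-derived gene Rtl1, with a peak in 13 libraries, Mir370 in Rian, with 10, and Mir770 in Meg3, with 9. The cluster's regions with a peak numbered 5, 8 and 3 in sham (5.33 ± 2.52, n = 3) and 9, 7 and 5 at 72 h (7 ± 2), with group means of 4.33 to 6.33 between, so the groups overlapped. None of the 13 reached an unadjusted exact permutation p under 0.05, and the lowest was 0.338.

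**Figure D5:**
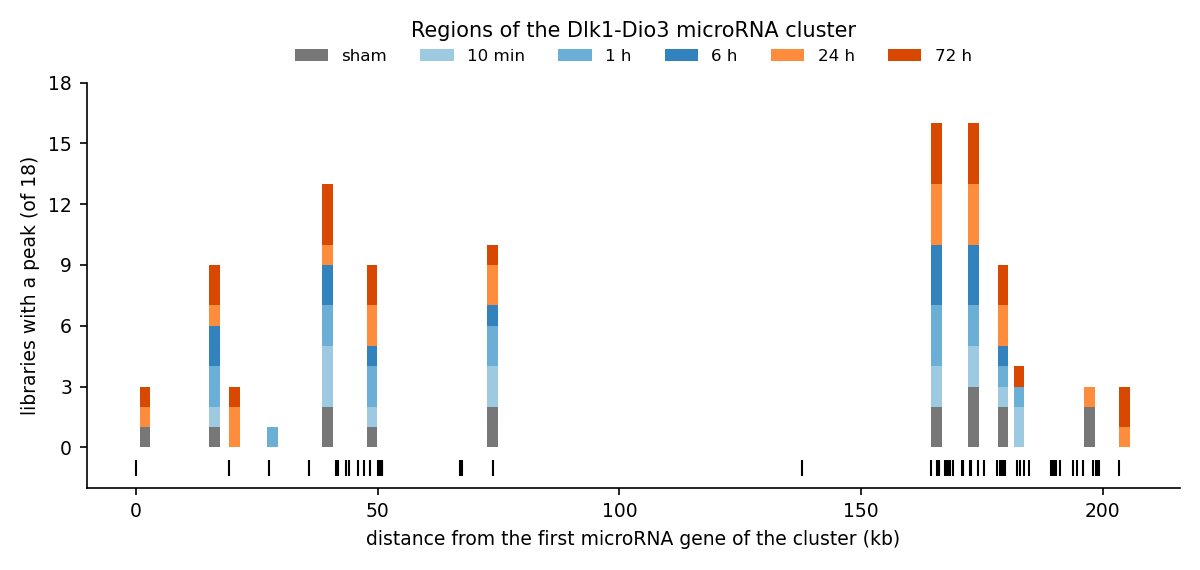
Libraries with a peak (of 18, stacked by group in colour) in each of the 13 regions of the Dlk1-Dio3 microRNA cluster, by distance (kb) from its first microRNA gene; ticks under the axis mark the genes. The tallest bars, 16 libraries each, stand over the Mir379 and Mir494 gene groups, and every group adds to both.

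Of 81 genes of the Sfmbt2 families, repeat-like microRNA genes of which most lie in an imprinted gene on chromosome 2, 8 had a region (9.88%). The 71 genes inside Sfmbt2 stand at 128 per 100 kb and met 1 merged region, 1.80 per 100 kb, with a peak in 7 libraries. The family member with the most libraries lies elsewhere: Mir467h, on chromosome 9, had a peak in 14. Reads from near-identical copies may be placed or dropped by the aligner in ways not given in the sources used here, so the count in these families is uncertain, and this was not tested. Of 5 other imprinted microRNA genes, Mir296 and Mir298 had a region, with a peak in 6 libraries.

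The 17 regions found in all 18 libraries lay mostly in protein-coding genes (13 of 17); 8 lay over the microRNA gene and 9 in its flank. Their mean scores ran from 74.8 to 164. The highest was over Mir1306, in Dgcr8, the gene of the protein that hands hairpins to Drosha, at chr16:18283168-18285270, with 115.52 to 258.71 over the libraries (164 ± 37.9, SD). Mir7006, in Zfp512b, had 147 ± 30.2, at chr2:181586592-181589600. Mir8099-2 had 135 ± 27.3 and Mir148a 121 ± 51.8.

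Mir219a-2 and Mir219b, on opposite strands of 1 site at chr2:29844348-29846418, had 137 ± 35.8. Sham scored 110.12, 153.21 and 85.23, the 10 min libraries 98.94, 76.41 and 103.27, and the 1 h libraries 115.95, 146.15 and 137.54. The 6 h libraries scored 198.06, 162.0 and 123.92, those of 24 h 203.82, 157.35 and 148.31, and those of 72 h 175.01, 145.4 and 119.0. The values of 6 h, 24 h and 72 h overlap those of sham. Scores of different lists are given side by side and were not tested. Mir219a-1 on chromosome 17, which makes the same miR-219a-5p, had a region 1401 bases away in 1 library, at 10 min. The hairpins shown above hold 6 CG in Mir219a-2 and 14 in Mir219a-1. A peak reached the Mir219a-2 gene in 18 libraries and the Mir219a-1 gene in 0.

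Over all 879 hairpins with a RefSeq sequence, the number of CG in the hairpin went with no steady order of peaks. A peak reached the hairpin in at least 1 library for 18.6% of the 274 hairpins with 0 CG, 14.0% of 235 with 1, 22.2% of 153 with 2, 24.4% of 127 with 3 to 4, and 13.3% of 90 with 5 or more. The mean number of libraries was 0.901, 0.643, 1.16, 1.86 and 1.28 in the same order. Peaks are wider than hairpins, with a median region of 1219 bases, so a peak over a hairpin without CG, as at Mir142, reports methylated cytosines nearby. These shares are a description without a test.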

How the data were processed

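MeDIP-seq peaks of 18 libraries were used. Per the submitters' processing notes the tools were Bowtie2 and MACS2 and the build mm10; versions and options are not given in the sources used here. The authors deposited 1 peak list per library, with a score for each peak, so peaks were called per library. Read counts were not used here, so depth is unknown and no counting interval can be given.

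With Python 3.11.15, numpy 2.4.6, pandas 2.3.3 and scipy 1.17.1, peaks overlapping by 1 base were merged, and a library counted as present where any peak touched the region. Exact tests ran on all 148111 autosomal regions, with Benjamini-Hochberg adjustment, and were tested on simulated data. Nothing says what the replicates share, so the exact tests, apart from the replicate block, treat the libraries as interchangeable between groups. Genes and sequences came from RefSeq tables for GRCm38.p6; hairpins were matched for 879 of 1090 genes. Named are the 6 heart genes, up to 3 genes of each list, the 8 regions in most libraries, up to 3 gained or lost regions per time, and those with the lowest p. Alternatives were a score of at least 100, equal list lengths, 50% coverage, merging over gaps of 500 bases, distances of 0 and 5000 bases, a replicate block and leaving out each library. The members and lists were chosen with earlier results of these data known.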

Additional observations from a re-analysis of the deposited data

Results flagged for a closer look

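On the X chromosome, left out of the regions above, 1 of the libraries at 72 h had a peak at a microRNA gene and none of the sham libraries did. The peak lies over Mir680-2 at chrX:144297441-144297965, with a score of 74.18, in 72 h replicate 2, whose peak list is the longest. It is the one region at the 90 X-linked microRNA genes, and no other library had one. Over the whole X chromosome there were 1.35 merged regions per 100 kb, against 6.17 on the autosomes. Groups of 3 libraries were too small to look for outlying samples.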

How the results depend on the processing

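Counts of called regions were small and moved with most settings, and so did the number of microRNA regions: 110 with a score of at least 100, 361 with equal list lengths, 471 with gaps merged, 160 over the gene and 949 within 5000 bases, against 483. The cause was not tested. The 7 gained at 72 h (1.45%, against 0.724% of autosomal regions) became 0% (0.481%) at a score of at least 100, 0.831% (0.445%) with equal list lengths, 1.24% (0.643%) with 50% coverage, 2.5% (0.724%) over the gene and 1.37% (0.724%) within 5000 bases. Over the 6 groups, the count of 6 became 1 with a score of at least 100 (0.772% of autosomal regions). In order of time, that score gave gained counts of 0, 1, 1, 0 and 0, against 0.0772% to 0.481% of autosomal regions. Lost counts were 1, 2, 2, 1 and 0, against 0.222% to 0.645%, and 1 region was lost in MI as a whole (0.264%). The excess at 72 h over sham became 3.33 regions per library and -0.0113 percentage points, a reversal. Equal list lengths gave 1, 1, 2, 2 and 3 gained (0.337% to 0.445% of autosomal regions). They gave 1, 0, 0, 2 and 1 lost (0.345% to 0.438%), and an excess of 4.33 regions and 0.0139 points. Coverage of 50% gave 2, 2, 0, 2 and 6 gained (0.23% to 0.643% of autosomal regions). It gave 1, 2, 0, 1 and 4 lost (0.477% to 0.585%), and 2 gained in MI (0.0385%). Merging over gaps moved the count gained at 10 min to 2, against 0.227% of autosomal regions. Regions that touch the gene, 160 in all, gave 1, 0, 0, 1 and 4 gained (0.203% to 0.724% of autosomal regions). Their excess was 22 regions and 0.0324 points. A distance of 5000 bases, with 949 regions, gave 2, 3, 1, 4 and 13 gained, against the same autosomal shares. It gave 3, 2, 2, 2 and 1 lost (0.401% to 0.707%), and 1 lost in MI (0.255%). The alternatives of the share were chosen after seeing the data.

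Leaving out 1 library gave 7 to 19 regions over the 6 groups (1.45% to 3.93%, against 1.81% to 2.43% of autosomal regions). For the times against sham, it makes 2 of 2 libraries enough for a gain or loss, so these counts can only rise or stay. Gained were 2 to 6 at 10 min (autosomal share 0.403% to 1.02%), 2 to 6 at 1 h (0.398% to 0.797%), 0 to 3 at 6 h (0.427% to 0.933%), 2 to 7 at 24 h (0.653% to 1.24%) and 10 to 23 at 72 h (2.07% to 4.76%, against 1.05% to 2.41%). Lost were, in the same order, 2 to 7 (0.974% to 2.12%), 1 to 12 (1.08% to 2.01%), 0 to 7 (1.1% to 2.42%), 1 to 7 (0.976% to 1.79%) and 0 to 5 (0.691% to 1.42%). Lost in MI were 0 to 4 (0.144% to 1.43%). The excess at 72 h ran from 34.5 to 64 regions and from 0.0523 to 0.0710 points. Under a replicate block, permuting within replicate numbers, 6 regions passed the unadjusted 0.05, 5 of them the same regions, while the share of autosomal regions that passed went from 1.03% to 0.675%. The labels do not say whether same-numbered mice share anything, and correlations among 3 libraries per group cannot settle this. Correlations were taken on peak presence after subtracting each group's mean, between libraries of different groups. On these values, same-numbered libraries had a mean correlation of 0.00263, against -0.00132 for libraries of different numbers. No same-numbered pair was over 0.1, and 9 of 18 libraries correlated best with their own number. Mir499 fell from 11 libraries to 0 with a score of at least 100 and to 6 with equal list lengths or with only the merged region that touches the gene; Mir208a went from 1 to 0 in each, and Mir208b from 0 to 1 within 5000 bases. Of the 7 regions gained at 72 h, 3 were still gained with equal list lengths, 5 with 50% coverage and 0 with a score of at least 100. The depth of the libraries is unknown, so a missing peak does not show unmethylated DNA.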
